A study of Saccharomyces cerevisiae BY4741 with 5 samples.

Results

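The transcripts of the large-subunit proteins of the cytosolic ribosome were taken from CRAC data on Ssd1, an RNA-binding protein of budding yeast. A transcript was a member if its gene symbol was RPL followed by a digit, or RPP0, RPP1A, RPP1B, RPP2A or RPP2B, which gave 81 of the 5090 transcripts in the table. They form 46 families, of which 35 have an A and a B copy and 11 have a single gene. CRAC (cross-linking and analysis of cDNA) irradiates living cells so that a protein stays bound to the RNA it touches, and the RNA pieces that come through purification of the protein are sequenced, so that a count is a piece of RNA recovered with the protein. The RNA level of the genes was not analysed here, so a change in binding and a change in the amount of a transcript cannot be told apart.

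Ssd1–HTP at 42°C was 2 libraries, replicates 3 and 4, from cells heat shocked for 16 min. Ssd1–HTP at 30°C was 2 libraries of the same replicate numbers, from exponentially growing cells. Per the methods, cells for 42°C were collected on filters and moved into pre-warmed medium, whereas the 30°C cultures went directly to cross-linking. Temperature and this transfer therefore cannot be told apart in any comparison of 42°C with 30°C. The untagged control was 1 library at 30°C. All cells were BY4741, a laboratory strain, in minimal medium without tryptophan. In the tagged cells the SSD1 gene at its own locus ends in a His–TEV–Protein A (HTP) tag, followed by the SSD1 terminator of Kluyveromyces lactis and a URA3 marker. Replicates 3 and 4 are independent clones of that strain, and the libraries of both temperatures of a clone were pooled during preparation, so that clone and pool cannot be told apart.

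The large subunit carries the centre that forms peptide bonds, the tunnel through which the new chain leaves and a flexible stalk that recruits the elongation factors. In budding yeast most of its proteins are made from 2 genes that encode the same or nearly the same protein. These genes are among the most strongly expressed in growing yeast, and their transcription is known to drop transiently on heat shock.

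The libraries held 169549 and 413502 counts at 42°C, 176962 and 111824 counts at 30°C, and 3921 counts in the untagged control, on 3799 and 4486, 4026 and 3458, and 560 transcripts. The tagged gene SSD1 had 209 and 302 counts at 42°C, against 95 and 81 counts at 30°C and 2 in the untagged library. Of the genes deleted in whole or in part in BY4741, URA3 and LEU2 were at 0 in every library, MET17 had 1 count in all and HIS3 had at most 20 counts. As the tagged cells carry a URA3 marker, URA3 is no check of their strain. In the untagged library a transcript at 0 could still hold 3 counts, or 0.0765% of the library. This limit and the 95% intervals given below cover counting error only and take each count as an independent molecule.

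Large-subunit transcripts took a much smaller share of the Ssd1–HTP counts at 42°C than at 30°C. They held 1.30% and 2.01% of all counts at 42°C (exact Clopper-Pearson intervals 1.25% to 1.36% and 1.97% to 2.05%), against 6.82% and 6.40% at 30°C (6.71% to 6.94% and 6.26% to 6.55%). The untagged library was higher still, at 9.16% (8.27% to 10.1%), with 359 counts on the members. The mean was 1.66% ± 0.501 at 42°C and 6.61% ± 0.296 at 30°C (SD, n = 2 each), a ratio of 0.250. Within clones the ratio was 0.191 for replicate 3 and 0.314 for replicate 4. The 81 members are 1.59% of the transcripts, so their share per transcript was near the average at 42°C. The small-subunit transcripts, 56 genes, held 0.702% and 1.14% at 42°C, against 4.68% and 4.41% at 30°C and 8.26% without the tag, the same order of groups.

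**Figure D1:**
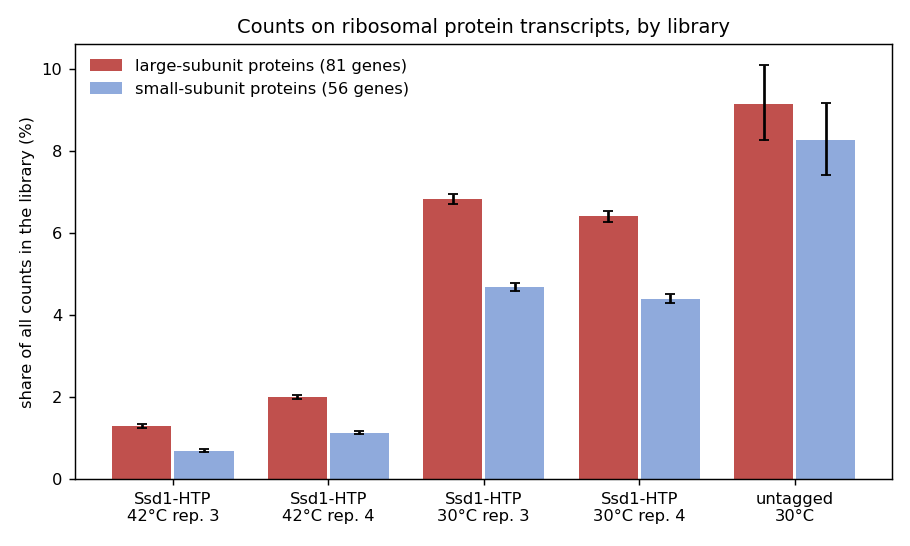
Share of all counts (%) on the 81 large-subunit and 56 small-subunit ribosomal protein transcripts in each of the 5 libraries, with exact 95% intervals for counting error. The large-subunit bars stand at 1.30% and 2.01% for 42°C, 6.82% and 6.40% for 30°C and 9.16% for the untagged library.

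Most members were present in every Ssd1–HTP library. At 42°C 80 members had counts in each library, with a median of 19 counts in replicate 3 and 65 in replicate 4. At 30°C all 81 had counts, with medians of 124 and 72. In the untagged library 48 members had counts, with a median of 2. Of the 100 most counted transcripts, 0 and 2 were members at 42°C, against 17 and 16 at 30°C and 16 in the untagged library. The best placed member was RPP0 at 42°C (rank 107 in replicate 3 and 78 in replicate 4), RPL2B at 30°C (ranks 22 and 16) and RPL10 in the untagged library (rank 21).

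Gene by gene, all 80 members that could be tested had a lower normalised count at 42°C than at 30°C, whereas 46.8% of the 2837 transcripts tested did. RPL15B, at 2 and 7 counts at 42°C against 12 and 11 counts at 30°C, was the member below the minimum mean count of 10. With edgeR's quasi-likelihood test and Benjamini-Hochberg adjustment over all transcripts, 22 members were lower (27.5% of the 80, where 3.45% of all tested transcripts were lower and 2.76% of the others). No member was higher in this test (0 of 80, where 3.81% of all transcripts were), 0 at an unadjusted p under 0.05 and 0 with DESeq2. At an unadjusted p under 0.05, 63 members were lower. Both shares at 42°C lay below both shares at 30°C in 76 of the 80 (25.7% of all transcripts tested), the other 4 being RPP0, RPL17B, RPL37A and RPL43B. With the clone as a block, 37 members were lower, among them all 22. Leaving out 1 library changed the count to 14 (42°C replicate 3), 27 (42°C replicate 4), 28 (30°C replicate 3) or 5 (30°C replicate 4), and 12, 13, 19 and 5 of the 22 remained.

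The size of the difference varied widely among the members. The median log2 fold change of the members was -2.11 (quartiles -2.61 and -1.68), beside a median of 0.13 over all transcripts tested (quartiles -0.93 and 1.23). Of the 80, 74 lay below -1 (23.8% of all transcripts did), 51 below -2 and 11 below -3. The SD over members was 1.03, or 0.773 without RPL22B, and the median standard error of a single member was 0.652, so that much of the order within the family lies within the error. The ratio was lower in replicate 3, where the median ratio of shares was 0.155 and all 81 members had a lower share at 42°C, than in replicate 4, where it was 0.245 and 78 had. Members with shorter counted intervals tended to have log2 fold changes closer to 0. The intervals run along the genome and include any introns, so their length is not that of the mature transcript. The median was -1.78 for the 22 under 800 nt and -2.18 for the 58 others. Spearman's rho of log2 fold change with interval length was -0.34 across the 80 members and 0.029 across all transcripts tested. Across the members Pearson's r was -0.21. Members are not independent replicates, and this is a description without a test.

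**Figure D2:**
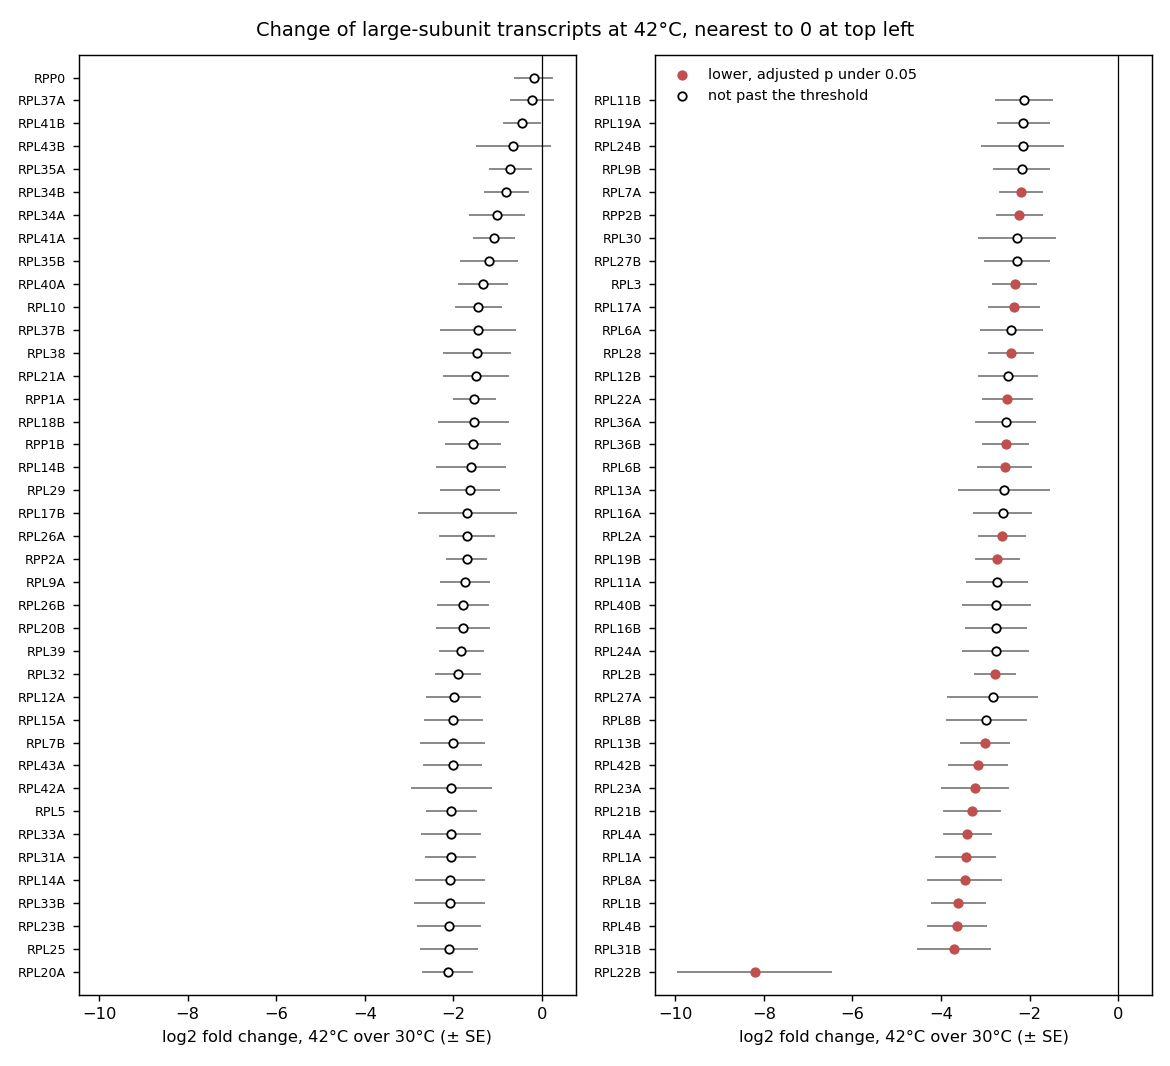
Log2 fold change of the tested large-subunit transcripts, 1 of the 80 not shown, 42°C over 30°C (edgeR, bars are standard errors), with the 22 of adjusted p under 0.05 filled. All points lie at or left of RPP0 at -0.19, and the value of RPL22B at -8.20 is a fitted value for a transcript with no counts at 42°C.

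Among the proteins of the stalk, RPP0 overlapped between the temperatures and RPP2B was called lower. Rpp0 anchors the stalk, and its transcript (chromosome XII, 805827 to 806910, + strand) had 211 and 823 counts at 42°C, against 386 and 203 counts at 30°C and 5 counts in the untagged library. As a share of the library this was 0.124% and 0.199% at 42°C, against 0.218% and 0.182% at 30°C, so the groups overlapped. Its log2 fold change was -0.19 ± 0.43 (SE), the nearest to 0 of all members (adjusted p = 0.887, edgeR), and it had the highest count of any member at 42°C. Rpp1 and Rpp2 form the dimers that Rpp0 holds. RPP1A had 54 and 163 counts at 42°C against 162 and 147 counts at 30°C, and RPP1B 17 and 92 counts at 42°C against 93 and 60 counts at 30°C, with no count of either in the untagged library. RPP2A had 56 and 178 counts at 42°C, against 236 and 149 counts at 30°C and 19 in the untagged library. RPP2B had 42 and 64 counts at 42°C, against 213 and 86 counts at 30°C and 11 in the untagged library. It was the one of the 5 called lower (log2 fold change -2.24 ± 0.53, adjusted p = 0.0415, edgeR). RPP1A, RPP1B and RPP2A were lower too, with log2 fold changes of -1.53, -1.56 and -1.70. These 3 did not pass the threshold (adjusted p = 0.1105, 0.212 and 0.0690, edgeR). RPL12A and RPL12B, whose protein sits at the base of the stalk, had log2 fold changes of -1.99 and -2.49 and were not called.

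Among proteins at the peptidyl transferase centre or joining it late, RPL2A, RPL2B and RPL3 were called lower and RPL10 was not. The groups by role were drawn after the values were seen, so a count within one of them is no result about the role. RPL2B (chromosome IX, 316744 to 318019, + strand), encoding a protein that lies close to the centre, had 68 and 313 counts at 42°C, against 682 and 543 counts at 30°C, where no other member had as many. Its share was 0.0401% and 0.0757% at 42°C, against 0.385% and 0.486% at 30°C, with no overlap, and its mean rank among all transcripts was 215 at 42°C and 18 at 30°C. The log2 fold change was -2.78 ± 0.48 (adjusted p = 0.0147, edgeR). Its copy RPL2A had 19 and 70 counts at 42°C against 168 and 107 counts at 30°C and fell by a like amount (-2.63 ± 0.54, adjusted p = 0.0261, edgeR). RPL3, whose protein reaches into the centre, had 37 and 151 counts at 42°C against 302 and 170 counts at 30°C (-2.34 ± 0.50, adjusted p = 0.0315, edgeR). RPL10, encoding a protein that joins the subunit late, in the cytoplasm, had 59 and 328 counts at 42°C against 262 and 217 counts at 30°C. Its shares did not overlap either, but the log2 fold change of -1.44 ± 0.54 did not pass the threshold (adjusted p = 0.174, edgeR).

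Among 14 members grouped here by a place in the exit tunnel or at its rim, 5 were called lower, beside 27.5% of all members tested. The group is not a full list of such proteins. Of these 5, RPL31B and both RPL4 copies had the lowest log2 fold changes. Rpl4 forms part of the tunnel wall. RPL4A had 21 and 60 counts at 42°C against 177 and 236 counts at 30°C, and its log2 fold change of -3.40 ± 0.56 had the smallest adjusted p of the members (0.0122, edgeR). RPL4B had 6 and 39 counts at 42°C against 134 and 125 counts at 30°C (-3.64 ± 0.68, adjusted p = 0.0182, edgeR). At both loci the groups stood far apart. RPL31B, encoding a protein at the rim of the exit, had 2 and 21 counts at 42°C against 77 and 62 counts at 30°C (-3.70 ± 0.84, adjusted p = 0.0357, edgeR). RPL35A, whose protein also sits at the rim, had a log2 fold change of -0.71, the fifth nearest to 0. RPL25, the docking site for factors that meet the emerging chain, and RPL39, a small protein inside the tunnel, had log2 fold changes of -2.10 and -1.82 and were not called.

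Rpl1 forms the mobile stalk at the exit site for tRNA, and both its transcripts fell. RPL1B had 7 and 29 counts at 42°C against 145 and 80 counts at 30°C (-3.62 ± 0.62, adjusted p = 0.0147, edgeR). RPL1A had 6 and 28 counts at 42°C against 140 and 53 counts at 30°C (-3.44 ± 0.69, adjusted p = 0.0240, edgeR). RPL8A, with 3 and 59 counts at 42°C against 200 and 111 counts at 30°C, also fell, although its 42°C libraries differed widely (-3.47 ± 0.84, adjusted p = 0.0457, edgeR). RPL21B, with 8 and 26 counts at 42°C against 128 and 52 counts at 30°C, fell by 3.30 on the log2 scale (adjusted p = 0.0230, edgeR). RPL13B, with 32 and 58 counts at 42°C against 329 and 102 counts at 30°C, fell by 3.01 (adjusted p = 0.0182, edgeR). In all 5 of these transcripts both shares at 42°C lay below both at 30°C. Which members stayed called without 30°C replicate 4 depended on whether the count minimum was taken over the libraries left or over all 4.

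The carriers of the small ribosomal RNA of the large subunit, Rpl5 and Rpl11, gave no call. RPL5 had 39 and 159 counts at 42°C, against 329 and 100 counts at 30°C and 14 in the untagged library, with a log2 fold change of -2.05 ± 0.58. RPL11A, at 9 and 37 counts at 42°C against 120 and 42 counts at 30°C, had -2.74 ± 0.69. RPL11B, at 15 and 45 counts at 42°C against 58 and 69 counts at 30°C, had -2.13 ± 0.66, and its interval overlaps that of MRP13 on the same strand by 69 nt. The adjusted p-values were 0.0752, 0.0534 and 0.105 (edgeR). In each of the 3 both shares at 42°C were below both at 30°C. With the clone as a block RPL5 and RPL11A were called (adjusted p = 0.0318 and 0.0285, over ranges of 0.00324 to 0.195 and 0.00465 to 0.167 among the alternatives).

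RPL22B (chromosome VI, 64173 to 64974, − strand) was the member not detected at 42°C. It had 0 counts in both libraries at 42°C, against 30 and 21 counts at 30°C and 0 counts in the untagged library. Set against 3 counts in each 42°C library, its mean share was at least 14.3-fold lower at 42°C (adjusted p = 0.0357, edgeR). RPL22B reached the minimum mean count only through its 30°C counts, so in the test it could only come out lower. Nothing is read from the direction of its call. Rpl22 is known to repress the splicing of its own RPL22B transcript. RPL22A, the more counted copy, had 22 and 37 counts at 42°C, against 94 and 88 counts at 30°C and 14 in the untagged library, and fell (-2.51 ± 0.58, adjusted p = 0.0373, edgeR). RPL28, in which mutations give resistance to cycloheximide, had 62 and 66 counts at 42°C against 269 and 154 counts at 30°C (-2.43 ± 0.52, adjusted p = 0.0315, edgeR). RPL30, whose protein also represses splicing of its own transcript, had 4 and 40 counts at 42°C against 72 and 30 counts at 30°C, and its -2.28 ± 0.88 was not called (adjusted p = 0.187, edgeR).

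Rpl41, the smallest protein of the ribosome, had the highest density of counts per length among the large-subunit members in the Ssd1–HTP libraries. RPL41A had a mean of 4113 TPM at 42°C and 9704 TPM at 30°C, and RPL41B 4117 TPM at 42°C and 6245 TPM at 30°C, where RPP0 had 1757 TPM at 42°C and 2225 TPM at 30°C and RPL2B 533 TPM at 42°C and 4124 TPM at 30°C. TPM here is the count per length of the interval, scaled to a common library size. Both lie on chromosome IV, RPL41A at 130197 to 130506 and RPL41B at 221523 to 221819, on the − strand. RPL41A had 132 and 575 counts at 42°C against 520 and 229 counts at 30°C. RPL41B had 142 and 511 counts at 42°C against 265 and 176 counts at 30°C. Both shares at 42°C were below both at 30°C for each copy, but the log2 fold changes of -1.08 ± 0.47 and -0.45 ± 0.43 were not called (adjusted p = 0.246 and 0.682, edgeR).

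The other members called lower were RPL23A, RPL42B, RPL19B, RPL6B, RPL36B, RPL17A and RPL7A. RPL23A had 13 and 10 counts at 42°C against 89 and 49 counts at 30°C (-3.23 ± 0.76, adjusted p = 0.0404, edgeR). RPL42B had 11 and 23 counts at 42°C against 133 and 44 counts at 30°C (-3.17 ± 0.67, adjusted p = 0.0291, edgeR). RPL19B had 25 and 66 counts at 42°C against 166 and 141 counts at 30°C (-2.73 ± 0.51, adjusted p = 0.0182, edgeR). In all 3 the libraries at 42°C lay well below those at 30°C in share. The log2 fold changes of the rest were -2.57 for RPL6B, -2.54 for RPL36B, -2.36 for RPL17A and -2.19 for RPL7A. The 58 members not called ranged from -2.98 in RPL8B, which had 2 and 54 counts at 42°C against 109 and 83 counts at 30°C, to -0.19 in RPP0. RPL17B shows how far the clones could differ, with 2 and 59 counts at 42°C against 78 and 15 counts at 30°C, a ratio of shares of 0.0268 in replicate 3 and 1.06 in replicate 4. Among the single-copy genes, RPL32 had -1.90 ± 0.51, RPL29 -1.62 ± 0.67 and RPL38 -1.48 ± 0.77, with no call.

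The remaining members near 0 were RPL37A, RPL43B and RPL34B. RPL37A, for a zinc-binding protein, had 84 and 191 counts at 42°C against 127 and 53 counts at 30°C (-0.24 ± 0.50). RPL43B, for another zinc-binding protein, had 12 and 117 counts at 42°C against 76 and 21 counts at 30°C (-0.65 ± 0.84). The libraries of the 2 temperatures overlapped for both. RPL34B had 77 and 324 counts at 42°C against 239 and 112 counts at 30°C (-0.81 ± 0.50). RPL37A turned to 0.092 without 30°C replicate 3, RPP0 to 0.22 and RPL43B to 0.084 without 42°C replicate 3, and RPL43B to 0.057 without 30°C replicate 3.

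**Figure D3:**
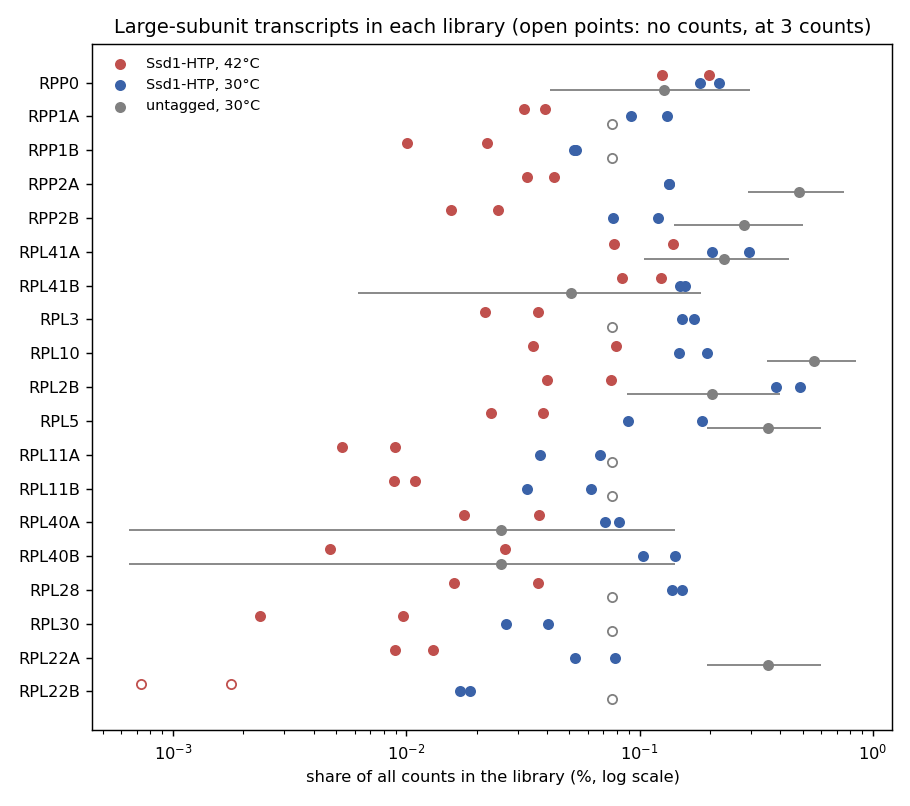
Share of all counts (%, log axis) of 19 named large-subunit transcripts in each library, with exact 95% intervals for the untagged library and open points, placed at 3 counts, for libraries without a count. The 42°C points lie left of the 30°C points except at RPP0, where 0.199% at 42°C exceeds 0.182% at 30°C.

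The A and B copies of a protein tended to have similar log2 fold changes. Of 34 pairs with both copies tested, the log2 fold changes differed by a median of 0.48 and by under 0.5 in 19 pairs. Pearson's r between A and B copies was 0.42 and Spearman's rho 0.53 across the 34 pairs (0.57 and 0.53 across 33 without RPL22). The points share their libraries, and reads that fit both copies may have been assigned to either, so this is given without a test. In 4 pairs both copies were called lower, in 12 pairs one copy and in 18 pairs neither, beside 27.5% of all members tested. Nothing is read from these counts of pairs. The smallest gaps were in RPL36 (-2.54 in both copies), RPL33 (-2.06 and -2.09) and RPP1 (-1.53 and -1.56). With the copies of each pair summed before the fit, 17 of 46 families were lower (3.32% of all rows tested in that fit were) and 0 were higher (edgeR, 0 at an unadjusted p under 0.05 and 0 with DESeq2). Leaving out 1 library lowered the 17 to 0 without 30°C replicate 3 and to 7 without 30°C replicate 4.

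In 8 pairs the copies differed by over 1 on the log2 scale, and in RPL21, RPL22, RPL31, RPL37, RPL40 and RPL42 the B copy had the lower value. After RPL22, the largest gap was in RPL21, where RPL21A had 11 and 78 counts at 42°C against 86 and 35 counts at 30°C (-1.49) and RPL21B was described above (-3.30). RPL31A, at 22 and 113 counts at 42°C against 168 and 103 counts at 30°C, had -2.06 against -3.70 for RPL31B. It was called with the clone as a block (adjusted p = 0.0267) and not without it (0.0737, over a range of 0.00363 to 0.228 among the alternatives). RPL40A and RPL40B encode ubiquitin fused to the same ribosomal protein, and their counts crossed over. RPL40A had 30 and 153 counts at 42°C against 126 and 91 counts at 30°C (-1.33), whereas RPL40B had 8 and 110 counts at 42°C against 183 and 158 counts at 30°C (-2.75 ± 0.78). RPL40B had an adjusted p of 0.0758 in the fit without a block and of 0.000377 with one, the lowest among its alternatives, which reached 0.238. RPL42A, with -2.05 against -3.17 for RPL42B, was called with the block (adjusted p = 0.0426) and not without it (0.254, over a range of 0.0258 to 0.494 among the alternatives). The difference between 2 copies was not tested.

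The share of a pair's counts on the A copy gives the same contrast within a library. Over the 28 pairs with at least 20 counts in each Ssd1–HTP library, its median was 58.2% at 42°C and 56.1% at 30°C, and in 8 pairs the temperatures did not overlap. Since the shares of 52.9% of all transcripts tested did not overlap between the temperatures in one direction or the other, nothing is read from that count. The pairs below were picked for their wide gaps, and their values are a description. RPL40A took 78.9% and 58.2% of the RPL40 counts at 42°C, against 40.8% and 36.5% at 30°C. RPL31A took 91.7% and 84.3% of the RPL31 counts at 42°C, against 68.6% and 62.4% at 30°C. RPL22A took all RPL22 counts at 42°C and 75.8% and 80.7% at 30°C. The A copy was therefore the larger part at 42°C in these 3, and in RPL40 it was the smaller part at 30°C. In RPL43 the order was the other way, with 55.6% and 40.6% on RPL43A at 42°C against 66.1% and 69.6% at 30°C. RPL41A took 48.2% and 52.9% of its pair at 42°C against 66.2% and 56.5% at 30°C. Of the 10 pairs with at least 50 counts in each library, 2 did not overlap (RPL37 and RPL41), again a count from which nothing is read.

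**Figure D4:**
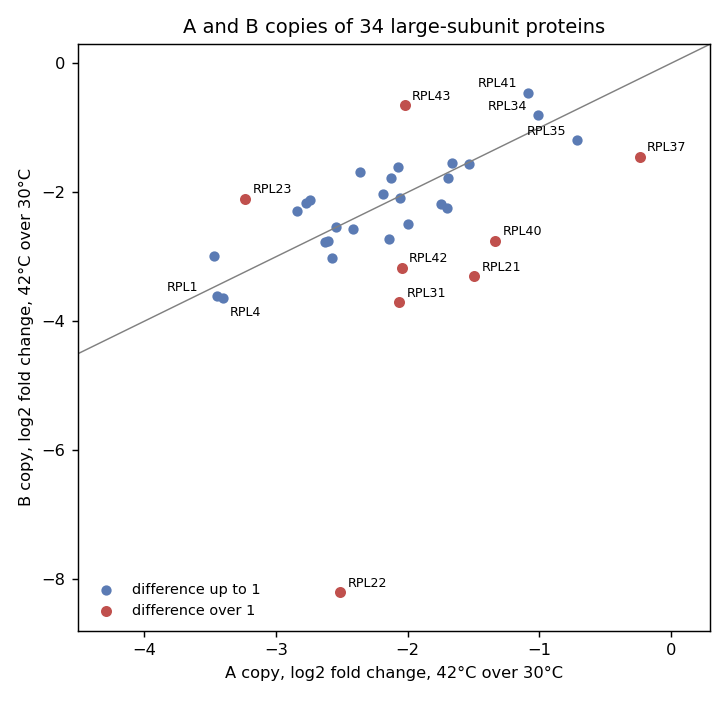
Log2 fold change (42°C over 30°C) of the B copy against that of the A copy for 34 large-subunit proteins, with the line of equal values and the 8 pairs that differ by over 1 in red. RPL1 and RPL4 lie at the low end of the line, RPL41 and RPL34 near its upper end, and RPL22 far below it because RPL22B had no counts at 42°C.

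By share of counts, the large-subunit transcripts as a group were not above the untagged library. This background library had counts on 48 of the 81 members (59.3%) and on 560 of all 5090 transcripts, and 16 members with at least 10 counts held 235 of its 359 large-subunit counts. The comparison at 42°C differs in tag, in temperature and in the transfer to pre-warmed medium, which cannot be told apart. A single library of 3921 counts has no spread of its own. With total counts as library sizes in edgeR, 18 of 79 members were lower at 42°C than in the untagged library (3.15% of transcripts tested were) and 0 were higher (1.15% of transcripts, 1 member at an unadjusted p under 0.05 and 0 with DESeq2). At 30°C 3 of 81 were lower (2.44% of transcripts) and 0 were higher (0.887% of transcripts, 7 members at an unadjusted p under 0.05 and 0 with DESeq2). A transcript could come out lower only if the untagged library had counted it. The 18 had 5 to 22 counts there and the 3 had 15 to 21. Members were counted there more often than all transcripts, so neither number is read against the share of all transcripts. Among transcripts with untagged counts, the median ratio of shares to that library at 42°C was 0.102 for members and 0.102 for the others. At 30°C it was 0.494 and 0.149. Without 30°C replicate 4, 0 members were lower at 30°C. The direction depends on the scaling, and the calls also on the count minimum. TMM, which sets the bulk of the transcripts equal, moved every log2 fold change up by 2.92 at 42°C and by 2.34 at 30°C, and then 4 members were higher at 42°C (6.57% of transcripts), 8 at 30°C (3.41% of transcripts), and 0 were lower at either temperature (0.0985% and 0.0443% of transcripts at 42°C and 30°C).

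With total counts as library sizes, the 3 members lower at 30°C than in the untagged library were RPL25, RPL19A and RPL21A. The untagged group is 1 library, which is assumed to vary like the Ssd1–HTP libraries that gave the spread. RPL25 had 0.0684% and 0.0519% of counts at 30°C against 0.536% in the untagged library, on 21 counts (log2 fold change -3.15 ± 0.65, adjusted p = 0.0298, edgeR). RPL19A, with 19 counts in the untagged library, had -2.68 ± 0.64 (adjusted p = 0.0483), and RPL21A, with 15, had -3.25 ± 0.78 (adjusted p = 0.0499). With TMM the log2 fold changes were -0.81 for RPL25, -0.34 for RPL19A and -0.91 for RPL21A, with no call (adjusted p = 0.358, 0.665 and 0.370, edgeR). Without 30°C replicate 4 they were not called either (adjusted p = 0.0726, 0.0884 and 0.126, edgeR). The most counted members of the untagged library were RPL10 at 22 counts, RPL25 at 21, and RPL19A and RPP2A at 19 each. RPL10 held 0.0348% and 0.0793% of counts at 42°C, with 0.148% and 0.194% at 30°C, against 0.561% in the untagged library.

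Some members had a larger share of counts at 30°C than in the untagged library, but none passed the test with total counts as library sizes. By counting error alone, the interval of the ratio of shares lay below 1 for 19 members and above 1 for 8. RPL2B held 0.435% of counts at 30°C (mean of 2 libraries), 2.13-fold its share in the untagged library (95% Poisson interval 1.08 to 4.94, on 8 counts), with an adjusted p of 0.637 (edgeR). Of the 33 members at 0 in the untagged library, 8 at 30°C and 0 at 42°C exceeded the share of 3 counts. RPL3 was at least 2.11-fold higher at 30°C, RPL28 at least 1.89-fold and RPL34B at least 1.54-fold by this measure (adjusted p = 0.114, 0.174 and 0.187, edgeR). At its 30°C share RPL3 would have given 6.33 counts in the untagged library, and none was seen. Over the 48 members with untagged counts the median ratio of shares to the untagged library was 0.102 at 42°C and 0.494 at 30°C, where the 512 other transcripts with untagged counts had 0.102 at 42°C and 0.149 at 30°C. A transcript enters these medians only if it had a count in the untagged library, where 1 count is a share of 0.0255%.

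**Figure D5:**
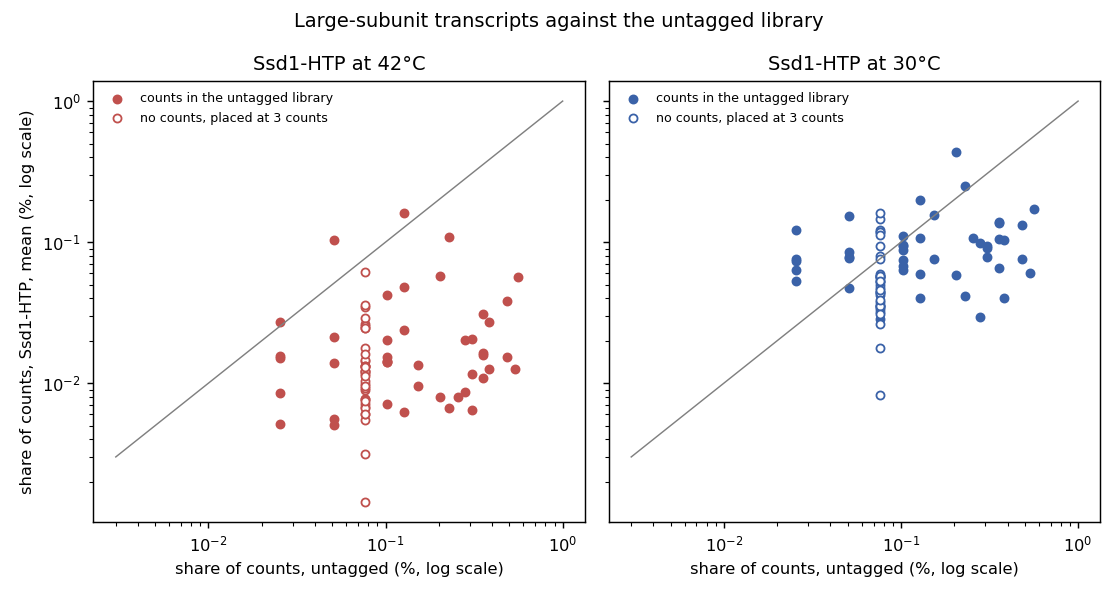
Mean share of counts of each of the 81 large-subunit transcripts with Ssd1–HTP at 42°C (left) and 30°C (right) against its share in the untagged library (%, log axes), with the line of equal shares and open points, placed at 3 counts, for the 33 members without untagged counts. RPL22B, which had no counts at 42°C, is missing from the left panel. At 42°C nearly all points lie under the line, and at 30°C they scatter on both sides of it, with RPL2B the highest at 0.435%.

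Other genes of the large subunit's making were mostly too thinly counted to be tested. The small-subunit transcripts had 25 of 56 lower, beside 3.45% of all transcripts tested, with a median log2 fold change of -2.53. Of the 29 assembly and export factors found, 5 were tested and 2 were called lower, MRT4 and SDA1, too few tested to read against that share. MRT4, a relative of Rpp0 that holds its place in the precursor, had 0 and 0 counts at 42°C, against 34 and 38 counts at 30°C (adjusted p = 0.0189, edgeR). SDA1, needed for export of the precursor, had 1 and 0 counts at 42°C, against 31 and 25 counts at 30°C (adjusted p = 0.0482, edgeR). RRB1, the chaperone of Rpl3, was the 1 tested of 4 such chaperones, with 0 and 0 counts at 42°C against 31 and 15 counts at 30°C (adjusted p = 0.0539, edgeR). MRT4, SDA1 and RRB1 reached the minimum mean count only through their 30°C counts, so they could only come out lower. Nothing is read from their direction. Of 10 regulators of ribosomal protein gene transcription 7 were tested with a median of -0.19, and of 34 mitochondrial large-subunit proteins 11 with a median of -0.64. Neither list had a call in either direction (edgeR, 0 at an unadjusted p under 0.05 and 0 with DESeq2).

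The members also shared features that the rule did not use. Their counted intervals were short, with a median of 944 nt (297 to 1793) beside 1499 nt for all transcripts, and all 81 had mapped transcript ends, where 4212 of 5090 did. The intervals of RPL7A and RPL7B contain the small nucleolar RNA genes SNR39 and SNR59, whose reads could be counted on them. The intervals of 8 members overlap that of another transcript, and 7 of these partners lie on the opposite strand. RPL7A fell at 42°C (-2.19 ± 0.50, adjusted p = 0.0360, edgeR), and RPL7B had -2.02 and was not called.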

How the data were processed

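Per the methods, the authors trimmed adapters with flexbar, split libraries by barcode, collapsed PCR duplicates, aligned reads with Novoalign and counted them on 1 interval per gene with multiBamCov of bedtools. The deposited values are these counts, without normalization. The submitters' processing notes name sacCer3. How reads that fit both copies of a pair were placed, and whether strand was used, are points not given in the sources used here, so near-identical copies may have exchanged counts. All 5090 locus names matched the RefSeq table of assembly R64, used for names and for the genes inside each interval. The coordinates are those of the deposited table.

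Members and lists were chosen with earlier results of these data known, and the groups by role after the values were seen. The temperatures were compared by the quasi-likelihood test of edgeR 4.0.16 (R 4.3.3), with TMM and no covariates, over the 2837 transcripts whose counts averaged 10 or more over both temperatures, with Benjamini-Hochberg adjustment at a threshold of 0.05. For the untagged library all 5 libraries entered as 3 groups, and library sizes were total counts. The standard error is the log2 fold change over the square root of F. Named members were the 10 most counted, the 5 at each end of the log2 fold change, the called (10 of smallest adjusted p where more), the 5 widest and 3 narrowest pairs, the 5 most counted in the control and those of special role. Members named outside this rule (such as RPL12A, RPL17B, RPL8B, RPL29, RPL32, RPL38 and RPL7B) were added after their values were seen. 1 member is counted but not reported by name here. DESeq2 1.42.0 and the alternatives below were run, and the tests were tested on simulated data. Replicate numbers pair the samples, as each is a clone and a library pool. Deviations of same-numbered libraries had a Pearson's r of -0.024 over 2837 transcripts and 0.017 over the 80 members. Figures were drawn with matplotlib 3.10.9 in Python 3.11.15.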

Additional observations from a re-analysis of the deposited data

How the results depend on the processing

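The members' median log2 fold change stayed within -2.62 to -1.91 when each library was left out. No alternative gave a member that was called higher at 42°C than at 30°C. The count of 22 members lower at 42°C was 35 with total counts as library sizes, 35 without a count minimum, 49 of 59 when the mean had to reach 50, 40 with DESeq2 and 37 with the replicate block, and 5 to 28 with 1 library left out. With the count minimum kept over all 4 libraries, an alternative chosen after seeing the data, leaving out 1 library gave 0 to 20, the 0 without 30°C replicate 4 and 6 without 42°C replicate 4. The 17 families were 32, 31, 39 of 44, 34 and 30 under the same settings, 0 to 15 with 1 library left out and 0 to 31 with the minimum over all 4. Against the untagged library, TMM turned 18 lower members at 42°C into 0 lower and 4 higher, and 3 lower at 30°C into 0 lower and 8 higher. A minimum mean of 50 gave 8 lower at 42°C, and 9 lower and 6 higher at 30°C. No minimum gave 5 lower and 2 higher at 30°C, and DESeq2 gave 7 lower. With 1 library left out, 16 to 21 were lower at 42°C and 0 to 4 at 30°C. Leaving out the 20 most counted other transcripts moved the members' share to 2.32% at 42°C, against 10.1% at 30°C and 11.2% untagged, and as a share of TPM it was 2.72% at 42°C, against 9.70% at 30°C and 12.6% untagged. Of pairs with at least 50 counts, 2 of 10 did not overlap. With 1 library left out, RPL37A ranged from -0.50 to 0.092, RPL43B from -2.14 to 0.084 and RPP0 from -0.69 to 0.22. Above 0 were RPL37A without 30°C replicate 3 (0.092, or 0.11 with the minimum over all 4), RPL43B without 42°C replicate 3 (0.084, or 0.042) and without 30°C replicate 3 (0.057, or 0.076), and RPP0 without 42°C replicate 3 (0.22, or 0.18). At 30°C against the untagged library, TMM turned RPL10 to 0.62, RPL39 to 0.47 and RPP2A to 0.48. The causes were not tested. With 3921 counts in the control, transcripts under 0.0765% of a library could not be told from background. Motif and intron counts were not run, as no genome sequence was used here.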
